A study of Mus musculus with 26 samples.

Results

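The genes described here were 6 forkhead transcription factors and 1 long noncoding RNA of the mouse choroid, the vascular and pigmented layer behind the retinal pigment epithelium (RPE). They were Foxc1, Foxc2, Foxd1, Foxd2, Foxf2 and Foxl1, together with Foxd2os, the noncoding transcript divergent to Foxd2, 7 of the 19921 genes listed in the tables used here. The members were chosen by their levels in these same data: summed unique molecular identifiers (UMIs) in the stromal clusters, and mean FPKM after endothelial Ihh deletion and in cultured GLI1+ cells. All levels below are therefore a description, and no test was made of them. All 7 had a row in both FPKM tables, and 6 had a row in the UMI tables, where Foxd2os was not listed.

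Single cells of RPE/choroid tissue came from 3-month-old mice of 2 strains, B6129PF1/J and C57BL/6J, with 1 droplet library per strain made from pooled cells of 1 male and 1 female mouse. The deletion was studied in RPE/choroid tissue of 6-month-old C57BL/6J mice in 2 groups of 3 libraries, Ihh+/+ and Ihh iΔEC/iΔEC, both given tamoxifen 12 weeks before sacrifice. The Ihh iΔEC/iΔEC mice carried loxP-flanked Ihh alleles. Cdh5-PAC-CreERT2, a tamoxifen-inducible Cre under a vascular endothelial promoter, acts in endothelial cells (ECs) of every organ and not of the choroid alone, and Ihh+/+ littermates carried the Cre too. The cultured GLI1+ cells carried the Gli1GFP/+ genotype, in which GFP replaces 1 Gli1 allele. Their strain is labelled SWR/J, and the study's methods state that the line was crossed to BALB/c and then intercrossed, so that the background was mixed. They were sorted as GFP+ from 1 pool of female mice, expanded in culture, starved of serum overnight, and treated for 24 h with DMSO or with 100 nM SAG, an agonist of Smoothened, in 3 libraries each. These replicates therefore shared their cells of origin.

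Forkhead factors bind DNA through a conserved winged-helix domain and direct the fate of mesenchyme in many organs. In the eye, Foxc1 and Foxc2 are known from the periocular mesenchyme, the neural crest and mesodermal tissue that forms the choroid, sclera and cornea, and Foxd1 from the temporal retina and from stromal progenitors of the kidney. In the gut, Foxf1, Foxf2 and Foxl1 are known in mesenchyme that receives Hedgehog ligands from the epithelium. In the Hedgehog pathway, a ligand such as IHH binds the receptor PTCH1, which releases Smoothened and activates GLI factors, and Gli1, Ptch1 and Hhip are the usual readouts.

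In the mm10 assembly, the annotation placed the 7 genes in 4 places, most of them beside another forkhead gene. Foxd2 (chr4:114906282-114908873, minus strand) and Foxd2os (chr4:114909257-114921967, plus strand) were transcribed away from each other, with 383 bases between them. Foxc2 (chr8:121116171-121118895) and Foxl1 (chr8:121127940-121130644) lay 9.04 kb apart on the plus strand, with Foxf1 28.03 kb before Foxc2. Foxf2 (chr13:31625816-31631403) and Foxc1 (chr13:31806633-31812476) lay 175 kb apart, and Foxd1 (chr13:98354242-98359305) stood alone on the same chromosome. The gene model Gm20388 spans both Foxc2 and Foxl1 on their strand, so reads there could be assigned to more than 1 gene. Of the 6 coding genes, 5 had 1 exon, Foxf2 had 2, and Foxd2os had up to 5.

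Foxd2 and Foxf2 were the members with a divergent noncoding neighbour at their start. The noncoding gene 1700018A04Rik (chr13:31565492-31625792, minus strand) starts 23 bases from the start of Foxf2 and runs the other way. The 250 bases before each start, in the direction of the gene, were read from the RefSeq promoter table (GRCm38.p6) and are shown because the Foxd2 window lies between the starts of Foxd2 and Foxd2os and the Foxf2 window holds the start of 1700018A04Rik. They correspond to chr4:114908899-114909148 (minus strand) for Foxd2 and chr13:31625566-31625815 (plus strand) for Foxf2. Capitals mark CpG pairs.
Foxd2: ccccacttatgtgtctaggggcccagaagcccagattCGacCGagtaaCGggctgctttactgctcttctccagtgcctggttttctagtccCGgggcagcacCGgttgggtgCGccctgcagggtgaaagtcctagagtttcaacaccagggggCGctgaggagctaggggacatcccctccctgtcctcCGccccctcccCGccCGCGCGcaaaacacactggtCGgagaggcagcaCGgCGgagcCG
Foxf2: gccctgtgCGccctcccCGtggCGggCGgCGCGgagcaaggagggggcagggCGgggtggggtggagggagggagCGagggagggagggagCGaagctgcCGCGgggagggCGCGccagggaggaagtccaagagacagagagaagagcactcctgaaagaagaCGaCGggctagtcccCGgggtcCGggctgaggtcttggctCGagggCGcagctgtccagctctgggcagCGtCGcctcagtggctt

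Both windows were rich in CpG, with 16 CpG pairs for Foxd2 and 21 for Foxf2 against a median of 6 over the 32851 promoters of the table. Foxc1 had 29 and Foxd1 had 12. The GLI motif GACCACCCA was in 0 of the 4 members' promoters that the table holds, on either strand, against 0.253% of all promoters. The forkhead motif TGTTTAC was in 0 of these 4 against 3.65% of all. Both motifs were sought as these exact letters, without variants, from 250 bases before to 50 bases after each start. At such low shares 0 of 4 is the usual outcome, so these counts do not set the members apart. Such a window also says nothing about more distant sites.

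Members of the family are alike in the DNA-binding domain, which bears on whether reads can be told apart. The longest run of bases shared by transcripts of 2 members was 53, in the coding sequences of Foxc1 and Foxc2. It was followed by one of 47 in those of Foxd1 and Foxd2. By the study's methods, the transcript reads of the single-cell libraries were longer than both runs. Both runs are shown because reads shorter than these could not be assigned to 1 gene there.
Foxc1 and Foxc2: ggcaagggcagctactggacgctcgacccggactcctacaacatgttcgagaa
Foxd1 and Foxd2: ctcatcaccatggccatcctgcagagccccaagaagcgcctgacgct

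The deposited counts held 3637 cells of B6129PF1/J and 3928 cells of C57BL/6J, with medians of 3881 and 3174.5 UMIs per cell and 22 cell barcodes in both libraries. The authors' 13 clusters were RPE (cluster 1), ECs with high, medium and low Kdr (2 to 4, below Kdr-high, Kdr-med and Kdr-low), stromal cells (5 to 8), smooth muscle cells (9), melanocytes (10), hematopoietic cells (11) and Schwann cells (12 and 13). The cells per cluster differ from those the study lists, with fewer in cluster 7 and more in cluster 5 of both strains here, so the deposited clusters are not exactly the published ones. The stromal clusters held 39.0% of all UMIs in B6129PF1/J and 37.7% in C57BL/6J, the shares against which the genes below are read. Dcn, a matrix proteoglycan and 1 of the 6 listed stromal markers, fitted the name, with 97.8% and 96.6% of its UMIs there. Of the 4 listed pericyte markers, 2 are given here. Kcnj8 was highest in cluster 6, at 2.81 and 3.76 UMIs per 10,000. Rgs5 did not set cluster 6 apart from smooth muscle cells, at 95.9 and 93.0 beside 92.4 and 99.3. Levels are given as B6129PF1/J and then C57BL/6J, in UMIs of the gene per 10,000 UMIs of the cluster, with exact Poisson 95% intervals that cover counting error only. With 1 library per strain there was no replicate, and no difference between strains or clusters was tested.

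The label of choroidal stroma held to different degrees for the 6 genes. The stromal share of UMIs was 94.7% and 96.2% for Foxl1 (18 of 19 and 25 of 26 UMIs), 84.7% and 93.6% for Foxd1, and 77.5% and 73.9% for Foxd2. It was 66.6% and 62.4% for Foxf2 and 62.8% and 55.8% for Foxc1, which were also counted in ECs and smooth muscle. For Foxc2 it was 44.7% (exact Clopper-Pearson 95% interval 35.4 to 54.3%) and 39.4% (29.4 to 49.98%), intervals that held the share of all UMIs. Smooth muscle cells, cluster 9, carried 42.1% and 52.1% of the Foxc2 UMIs, so that the data go against a label of stroma alone for this gene.

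**Figure D1:**
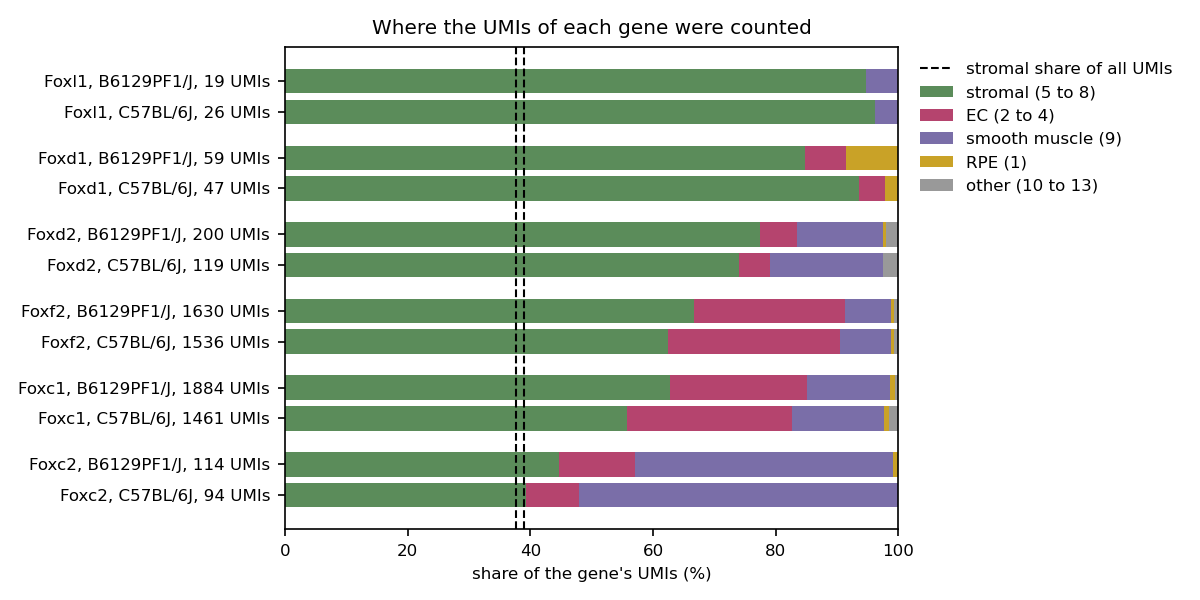
Share of each gene's UMIs (x axis, %) in stromal, EC, smooth muscle, RPE and other clusters, with a bar per gene and library and the number of UMIs beside it. Dashed lines mark the stromal share of all UMIs (37.7% and 39.0%), which the green part passes for every gene and library but only narrowly for Foxc2 (39.4% and 44.7%).

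Foxd1, a factor of stromal progenitors, was concentrated in cluster 7. This cluster of 185 and 158 cells gave 31 of 59 and 31 of 47 Foxd1 UMIs. The level there was 0.37 (0.25 to 0.52) in B6129PF1/J and 0.53 (0.36 to 0.75) in C57BL/6J. The next cluster, 8, was at 0.079 (0.026 to 0.18) and 0.042 (0.0051 to 0.15), and the intervals of clusters 7 and 8 did not overlap in either library. Of the cells of cluster 7, 15.1% and 15.2% held a Foxd1 UMI, against 1.23% and 0.267% of RPE cells, which had median depths of 5263 and 3406.5 UMIs to 4318 and 3380.5 in cluster 7. After every cell was thinned to 1700 UMIs, the shares in cluster 7 were 7.03% and 7.59%. Cluster 6 gave 0 and 1 Foxd1 UMI. No Foxd1 UMI was counted in smooth muscle cells of either library, where a count of 0 allows up to 3 counts, or 0.0169 and 0.0167 UMIs per 10,000.

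Foxl1, a mesenchymal factor of the gut, was scarce, with 19 and 26 UMIs in all. Clusters 7, 8 and 5 gave 7, 4 and 5 UMIs in B6129PF1/J and 6, 1 and 15 in C57BL/6J. The level in cluster 7 was 0.082 (0.033 to 0.17) and 0.10 (0.037 to 0.22), and its interval overlapped that of the next cluster in both libraries. No Foxl1 UMI was counted in ECs or in RPE cells. In the RPE a count of 0 allows up to 0.0100 and 0.0172 UMIs per 10,000.

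Foxd2, a paralog of Foxd1, was spread over all 4 stromal clusters. Its level in clusters 5, 6, 7 and 8 was 0.23, 0.22, 0.19 and 0.32 in B6129PF1/J and 0.15, 0.14, 0.26 and 0.13 in C57BL/6J, and neighbours in this order were not separated by their intervals. Smooth muscle cells stood at 0.16 (0.10 to 0.23) and 0.12 (0.077 to 0.19). ECs as a whole were far lower at 0.026 (0.013 to 0.045) and 0.012 (0.0045 to 0.027).

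Foxf2 and Foxc1 were the members with the most UMIs, and they differed in the stromal cluster with the highest level. Foxf2, a factor of gut and vascular mesenchyme, was highest in cluster 5 at 1.88 (1.73 to 2.04) and 1.88 (1.73 to 2.05). Cluster 6 (1.48 and 1.59), cluster 7 (1.30 and 1.34) and cluster 8 (1.20 and 1.15) followed, with overlapping intervals between neighbours in both libraries. In the deposited averages of C57BL/6J, cluster 7 (0.63) stood above cluster 6 (0.591). The step from 5 to 6 was separated by the intervals in B6129PF1/J and not in C57BL/6J. Foxc1, whose loss or gain is known from anterior segment malformations, was highest in cluster 7 at 2.25 (1.94 to 2.59) and 1.60 (1.29 to 1.96). Clusters 8 and 5 followed within overlapping intervals in both libraries.

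Outside the stroma, Foxc1 and Foxf2 marked the vessel wall in different ways. In ECs, Foxc1 was at 0.53 and 0.50 in the Kdr-high cluster and at 1.22 and 1.00 in the Kdr-med cluster, with intervals apart in both libraries. Foxf2 was at 0.97 and 0.97 in the Kdr-high cluster and 0.78 and 0.84 in the Kdr-med cluster, with overlapping intervals. In the Kdr-low cluster Foxf2 was at 0.92 and 0.91, and Foxc1 at 0.76 (0.49 to 1.13) and 0.97 (0.66 to 1.37). The Foxc1 interval there overlapped those of both other EC clusters in B6129PF1/J, and that of the Kdr-med cluster alone in C57BL/6J. In smooth muscle cells Foxc1 was at 1.43 (1.26 to 1.62) and 1.22 (1.06 to 1.39), and Foxf2 at 0.69 (0.57 to 0.82) and 0.70 (0.59 to 0.84). RPE cells held the lowest levels of these classes, with Foxc1 at 0.053 and 0.074 and Foxf2 at 0.027 and 0.046.

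Foxc2, a factor of lymphatic and vascular development, had 2 places. Its level was 0.27 (0.20 to 0.36) and 0.27 (0.20 to 0.36) in smooth muscle cells and 0.25 (0.15 to 0.38) and 0.20 (0.11 to 0.36) in stromal cluster 7. Clusters 5 and 6 were at 0.044 and 0.036 and at 0.054 and 0.068. The intervals of clusters 5 and 6 lay below that of cluster 9 in both libraries, while clusters 9 and 7 were not separated.

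**Figure D2:**
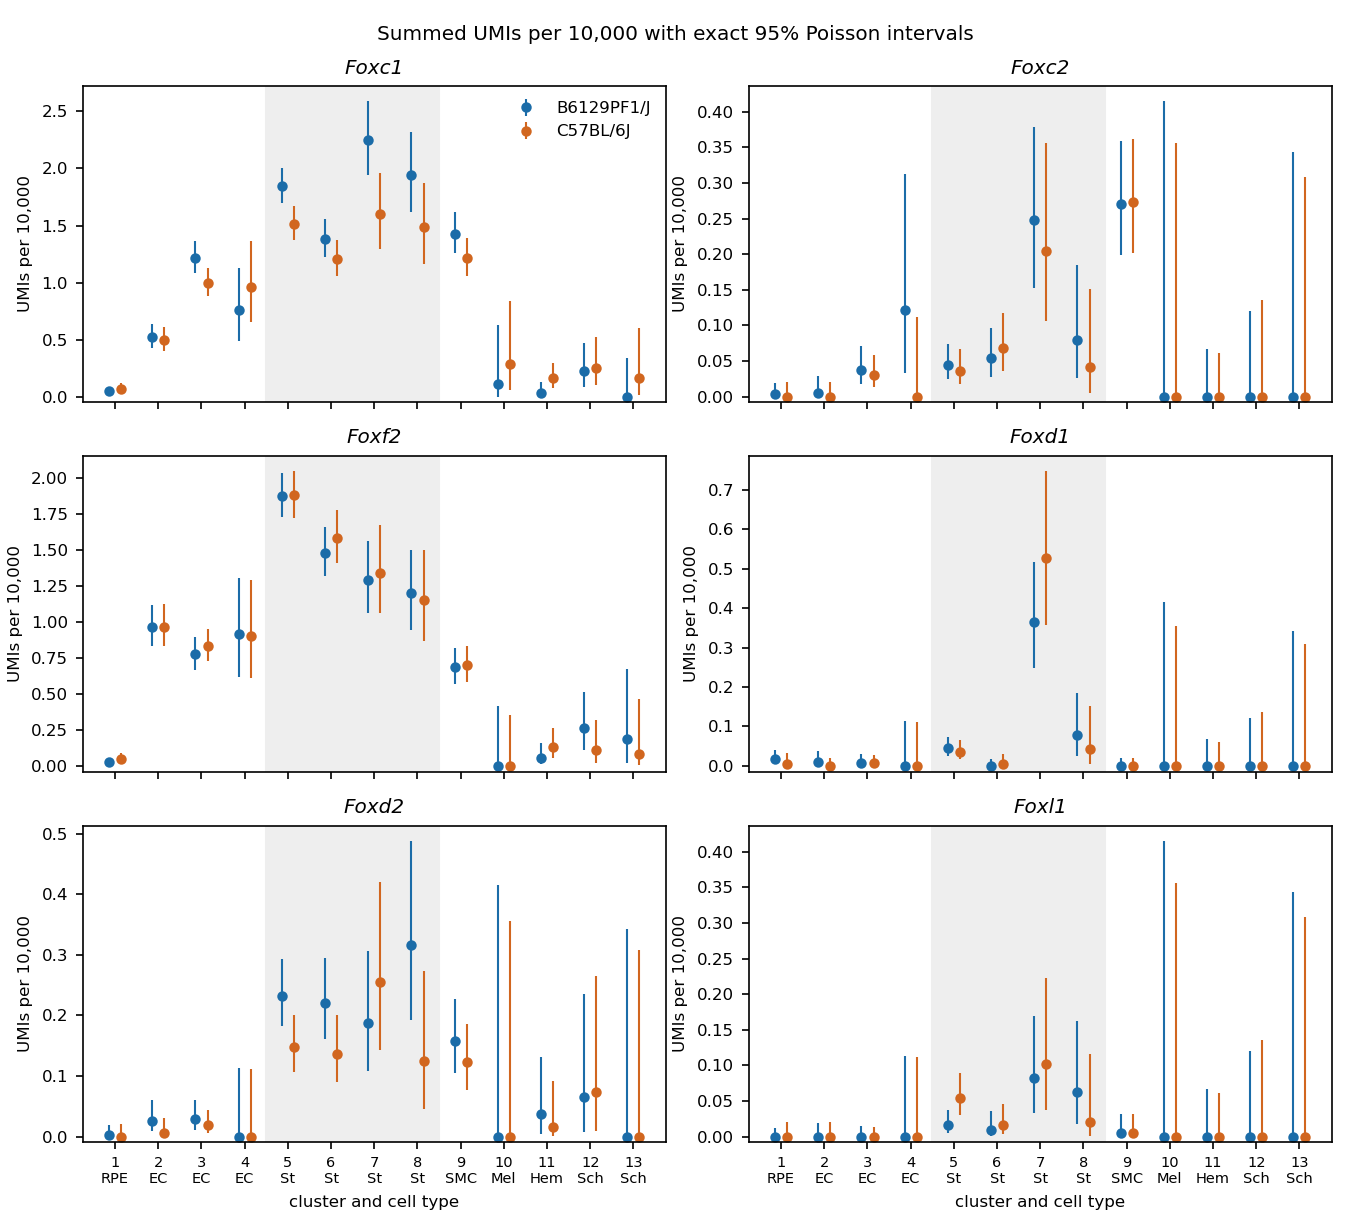
Level of each gene (y axis, UMIs per 10,000 UMIs of the cluster) in the 13 clusters (x axis) of B6129PF1/J and C57BL/6J, with exact 95% Poisson intervals and the stromal clusters (St) shaded. SMC, Mel, Hem and Sch are smooth muscle, melanocyte, hematopoietic and Schwann clusters. Foxd1 stands out in cluster 7 (0.37 and 0.53), Foxc2 in clusters 9 and 7, and Foxd2 is level across clusters 5 to 8.

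Over the 13 clusters, levels of the 2 libraries on a log2 scale correlated with Pearson's r of 0.85 to 0.97 for the 6 genes, a description in which the points share the authors' joint clustering. The intervals of the strains were apart in 1 of 78 comparisons of a gene in a cluster. This was Foxc1 in cluster 5, with 1.85 (1.70 to 2.00) in B6129PF1/J and 1.52 (1.37 to 1.67) in C57BL/6J.

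Foxc1 and Foxf2 were often counted in the same stromal cell. Of the 769 and 617 stromal cells with a Foxc1 UMI, 46.7% (43.1 to 50.3%) and 47.0% (43.0 to 51.0%) also held a Foxf2 UMI. Of those without one, 41.0% (37.9 to 44.2%) and 36.2% (33.4 to 39.1%) did, at median depths of 3502 and 2849 UMIs against 3705 and 3231 in those with one. With all cells thinned to 1700 UMIs, the shares were 26.7% (22.5 to 31.2%) against 23.0% (20.8 to 25.4%) and 28.8% (24.2 to 33.7%) against 22.4% (20.2 to 24.6%), with overlapping intervals in both libraries.

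The genes nearest to each member over the 13 clusters, among 11193 genes with at least 50 UMIs in each library, were found by Pearson's r on the log2 scale, ranked by the lower of the libraries. They were Cyp26a1, a retinoic acid hydroxylase, Adamtsl3 and Slc47a1 for Foxd1 (lower r from 0.91 to 0.96), and Podn, Igsf10 and Aldh3a1, a corneal aldehyde dehydrogenase, for Foxl1 (0.92 to 0.94). Twist1, a mesenchymal basic helix-loop-helix factor, Ptger2 and C1s1 came nearest to Foxd2 (0.93 to 0.94), and Tshz2, Tbl1x and Tcf4 to Foxf2 (0.91 to 0.96). For Foxc1 they included Ginm1 and 9530026P05Rik (0.88 and 0.87). For Foxc2 they were Slit3, a secreted guidance ligand, Adcy5 and Ddr2 (0.80 to 0.91). Cyp26a1 shared the narrow pattern of Foxd1, at 0.87 and 2.08 in cluster 7 and at most 0.069 in any other cluster. Ranked by Spearman's rank correlation, 1 of the 3 nearest genes was the same for Foxc2, Foxd2 and Foxf2 and none for the others.

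Beside the members, 20 other forkhead genes had a row in the UMI tables, and 15 of them had at least 100 UMIs in each library. Foxp2 was the most stromal of these, with 93.1% and 92.6% of its UMIs in clusters 5 to 8 and its highest level in cluster 7 (1.59 and 1.65). Foxp4 was also highest in cluster 7 (0.44 and 0.36). Foxs1 was highest in cluster 6 (2.095 and 1.70) and next in smooth muscle cells (1.52 and 1.36). Foxp1, Foxo1, Foxq1 and Foxf1 had higher levels in ECs than in stroma. The remaining 8, Foxj2, Foxj3, Foxk1, Foxk2, Foxn2, Foxn3, Foxo3 and Foxo4, were spread over most clusters, with stromal shares of 21.2% to 54.6%.

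**Figure D3:**
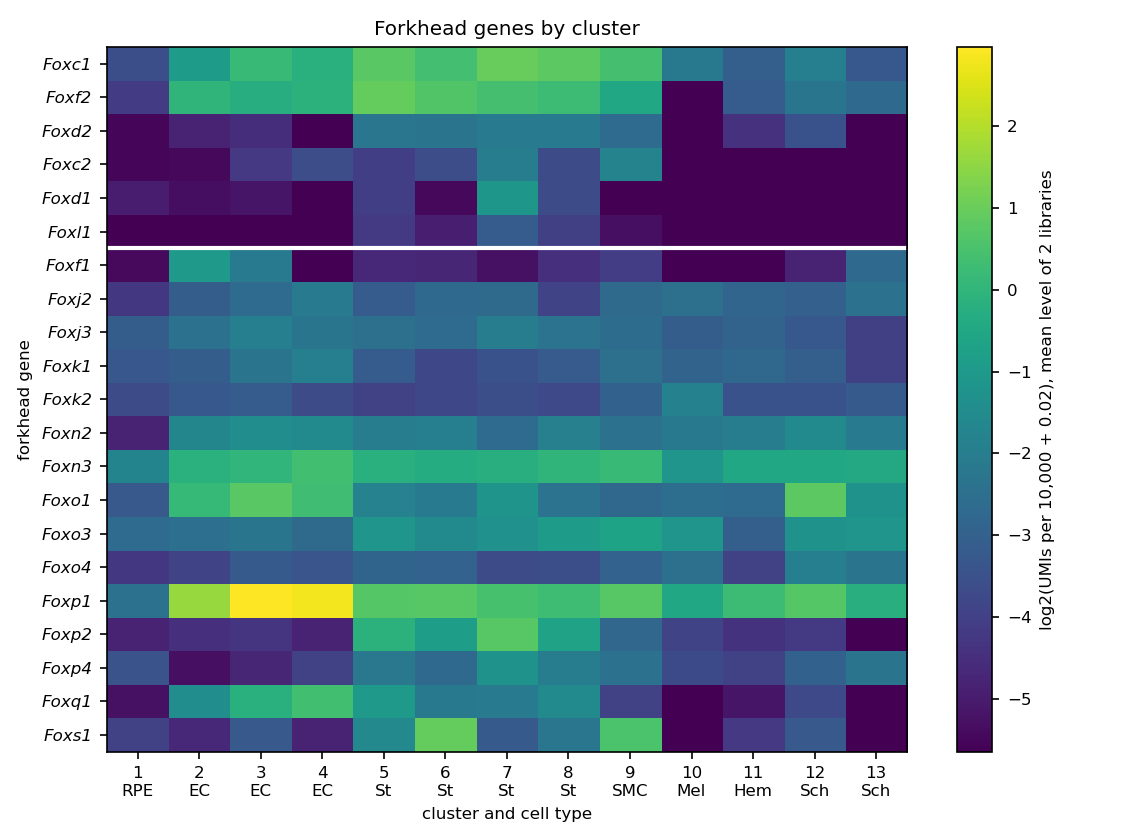
Mean level over both libraries of the 6 members (above the white line) and of the 15 other forkhead genes with at least 100 UMIs in each library, by cluster, on a log2(UMIs per 10,000 + 0.02) colour scale. Foxp2 is bright in stromal clusters 5 to 8 (highest in cluster 7, at 1.59 and 1.65), and Foxp1 is brightest in EC clusters 3 and 4 (8.33 and 7.73 in B6129PF1/J).

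Neighbours on the chromosome did not all share the members' place. Foxf1, which lies before Foxc2, had 7.32% and 6.13% of its UMIs in stromal clusters and was highest in Kdr-high ECs (0.34 and 0.62). Foxq1, 64.8 kb before Foxf2, was highest in Kdr-low ECs (1.008 and 1.54). The noncoding 1700018A04Rik, which starts beside Foxf2, had 86.1% and 81.9% of 79 and 94 UMIs in stroma and was highest in cluster 5 in both libraries, as Foxf2 was. The noncoding 9130410C08Rik, 3.42 kb downstream of Foxd2 on the same strand, had 95.1% and 97.8% of 61 and 45 UMIs there. Fendrr, the noncoding partner of Foxf1, gave 4 and 14 UMIs, none of them stromal. Gmds, 7.10 kb from Foxc1, was at 59.9% and 59.4%, while Mthfsd beside Foxc2, Cmpk1 near Foxd2os, and Btf3, Ankra2 and Utp15 near Foxd1 had stromal shares of 29.1% to 51.0%. The other neighbours with a row had at most 32 UMIs in a library or under 1 FPKM.

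Of the mesenchymal and periocular factors listed for comparison, Tbx18, Tcf21, Prrx2, Eya2, Twist1 and Six2 had at least 80% of their UMIs in stroma in both libraries. They were not alike within it. Tcf21 was at 0.059 and 0.034 in cluster 7 against 1.27 and 0.96 in cluster 5, and Prrx2 was at 0.015 and 0.037 in cluster 6 against 1.17 and 0.89 in cluster 7.

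Of the Hedgehog genes, Ihh and Gli1 divided between sender and receiver cells. Ihh was highest in Kdr-high ECs (3.20 and 3.36). Gli1 had 90.1% and 96.0% of its UMIs in stroma, at 0.34 and 0.36 in cluster 7, 0.28 and 0.29 in cluster 5 and 0.21 and 0.17 in cluster 6. Hhip, a ligand-binding inhibitor of the pathway, was highest in cluster 7 (0.29 and 0.36), the cluster of Foxd1, and at 0.0049 and 0 in cluster 6. Ptch1 was at 0.65 and 0.61 in cluster 7, and the study describes it as more broadly expressed than Gli1 though enriched in stromal cells.

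Deletion of Ihh in ECs asked whether the members depend on the ligand in adult tissue. Values are the authors' mean FPKM of a group, with no value per library, so that no error could be computed, and the authors' own test columns were not used. The mean of Foxd2 was 3.803 FPKM in Ihh+/+ and 1.85 in Ihh iΔEC/iΔEC, and that of Foxd2os was 2.28 and 1.14. Foxc1 was at 13.7 and 7.28, Foxf2 at 14.3 and 9.41, and Foxd1 at 3.73 and 2.69. Foxc2 was at 2.92 and 2.41, and Foxl1 at 0.883 and 0.427. All 7 members were thus lower after deletion, a direction that 57.8% of all genes above 0 FPKM in both groups shared.

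As a ratio of deletion to Ihh+/+, the members ran from 0.48 for Foxl1 and 0.49 for Foxd2 to 0.82 for Foxc2. Foxd2os stood at 0.50, Foxc1 at 0.53, Foxf2 at 0.66 and Foxd1 at 0.72. Where the higher of both group means was 1 FPKM or more, as for 6 members, 1, Foxd2, was at least 2 times lower, against 0.745% of genes, and none was at least 2 times higher, against 1.1%. Foxd2os lay just outside this limit, at 1.999 times lower, and Foxd2 just inside it, at 2.05 times. At 1.5 times, 4 of the 6 were lower (Foxc1, Foxd2, Foxd2os and Foxf2), against 2.53% of genes. As the members were named from these ratios, the shares are read no further. The divergent partners Foxd2 and Foxd2os thus stood side by side. Foxc2 and its neighbour Foxl1 were at 0.82 and 0.48, but Foxl1 was under 1 FPKM in both groups, and with a pseudocount of 1 they were at 0.87 and 0.76.

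**Figure D4:**
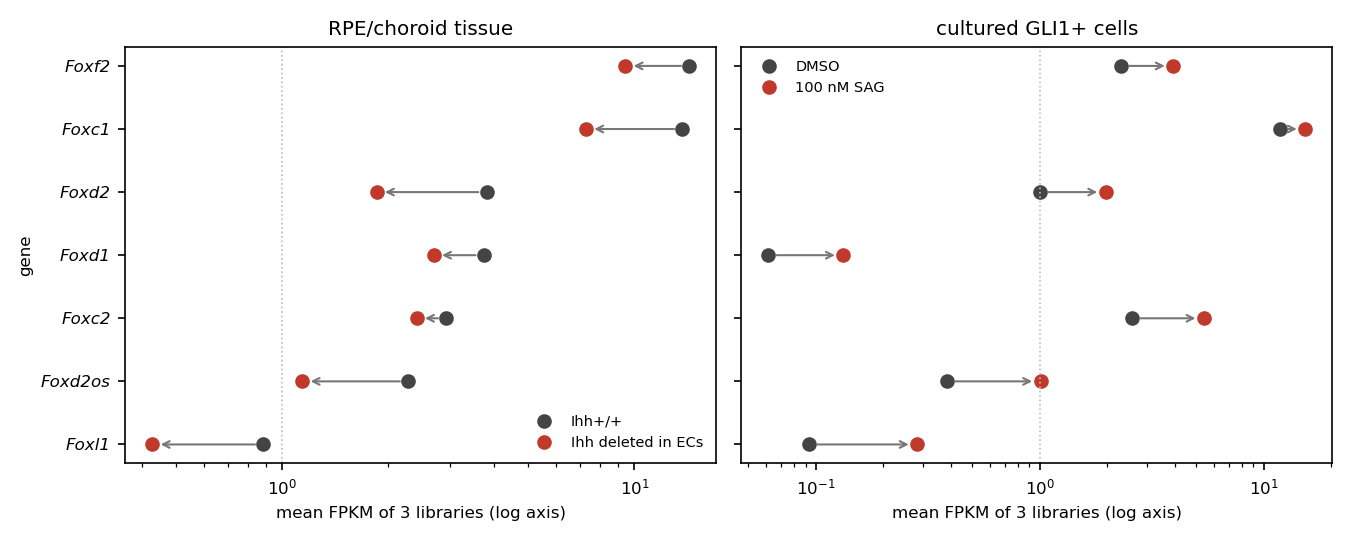
Mean FPKM of each member (x axis, log scale, as deposited by the authors for 3 libraries a group) in Ihh+/+ and Ihh iΔEC/iΔEC tissue (left) and in GLI1+ cells with DMSO and SAG (right), with arrows from control to treated. Arrows point left, to lower FPKM, for all 7 members in the left panel, and right, to higher FPKM, for all 7 in the right panel.

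The deletion was visible in the pathway. Ihh was at 1.53 and 0.454 FPKM, Gli1 at 9.40 and 3.15, Hhip at 1.05 and 0.346, and Ptch1 at 7.69 and 4.98. Of the 10 pathway genes with at least 1 FPKM, 3 were at least 2 times lower and none was 2 times higher. Gas1, a coreceptor that HH signaling is known to repress, was at 17.8 and 28.1.

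Stromal markers moved in the same direction as the members. The 6 markers summed to 732 FPKM in Ihh+/+ and 469 after deletion, and all 6 were lower. Their ratios ran from 0.52 for Lum and 0.58 for Col1a1 to 0.83 for Pdgfrb, with a median of 0.63, against a median of 0.59 for the 6 members with at least 1 FPKM. In tissue, fewer stromal cells and less RNA per cell cannot be told apart. Divided by the median ratio of these markers, a comparison added after the values were seen, Foxd2 was at 0.78, Foxd2os at 0.80, Foxc1 at 0.85 and Foxl1 at 0.77, while Foxf2 was at 1.05, Foxd1 at 1.15 and Foxc2 at 1.31. The last 3 thus turned from lower to higher. Relative to these markers, no member was 2 times lower. The divisor is stromal, while 42.1% and 52.1% of Foxc2 UMIs were in smooth muscle cells. Smooth muscle markers had ratios of 0.79 to 0.96. Foxc1 and Foxf2 were partly counted in ECs and smooth muscle cells too. For such genes the divided ratio does not give a change within stroma.

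A wider set gave the same comparison. Of 295 genes with at least 80% stromal UMIs in both libraries, none of them a member, 230 had at least 1 FPKM, of which 195 were lower and 14 at least 2 times lower, with a median ratio of 0.80. The median log2 ratio was -0.76 for the members, -0.67 for the stromal markers, -0.32 for this wider set, -0.16 for the 16 other forkhead genes with at least 1 FPKM and -0.04 for all genes with at least 1 FPKM in both groups. Melanocyte markers were lower as well, with 4 of 4 lower and summed levels of 2074 and 1276 FPKM. Of 5 neural retina markers, 4 were at least 2 times lower, with Gnat1 at 25.5 and 10.8 FPKM and Prph2 at 7.23 and 2.03, the exception being Rlbp1, which RPE also expresses. RPE markers moved the other way, with Rpe65 at 1.34, Ttr at 1.18 and Rlbp1 at 1.16, all 3 of those with at least 1 FPKM being higher. EC markers had ratios of 0.80 to 0.99 and smooth muscle markers of 0.79 to 0.96. The part of these cell types in the members' levels was not tested.

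Of the 16 other forkhead genes, 14 were lower too, and since the members were chosen by these ratios no difference between the sets was tested. Of the 16, 1 was at least 2 times higher and none was 2 times lower. This was Foxf1, the EC-expressed neighbour of Foxc2, at 0.707 and 1.72 FPKM. Foxl2 was at 1.34 and 0.840, Foxd3, which was counted in Schwann clusters 12 and 13, at 2.32 and 1.58, and Foxp2 at 2.31 and 1.73. Of the 14 mesenchymal factors with at least 1 FPKM, 13 were lower and 1 higher, with a median ratio of 0.75. Tcf21 was at 1.34 and 0.775, Tbx18 at 1.53 and 0.926 and Twist1 at 5.28 and 3.29, while Prrx2 was at 5.55 and 5.37. The factor that was higher was Zic1, at 0.41 and 1.93.

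Treatment of cultured GLI1+ cells with SAG asked whether the members respond to the pathway within stromal cells. The culture held stromal markers (Dcn at 842 FPKM and Col1a1 at 1555 with DMSO). Of the smooth muscle markers, Acta2 was at 335, Tagln at 277 and Myh11 at 0.897 FPKM, and of the RPE markers Ttr was at 3.33 and the other 3 were under 1 FPKM. There was no EC, hematopoietic or melanocyte marker above 1 FPKM. Ucma, a cartilage matrix gene, was at 10.3 and 4.69 with DMSO and SAG. Gli1 itself, the gene that marked the cells at sorting, was at 0.028 FPKM with DMSO and 3.65 with SAG. Ptch1 was at 1.13 and 10.1 and Hhip at 0.368 and 1.28.

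All 7 members were higher with SAG, as were 62.5% of all genes above 0 FPKM in both groups. Foxc2 was at 2.57 FPKM with DMSO and 5.41 with SAG, and Foxd2os at 0.384 and 1.008. Foxd2 was at 1.00 and 1.97, Foxf2 at 2.31 and 3.94 and Foxc1 at 11.8 and 15.3. Foxl1 was at 0.093 and 0.283 and Foxd1 at 0.061 and 0.133, both under 1 FPKM, where the precision of FPKM is unknown. By its own test, the study lists Foxl1 among Hedgehog targets that were significantly lower after Ihh deletion and significantly higher with SAG.

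As a ratio of SAG to DMSO, Foxd2os was at 2.62, Foxc2 at 2.1, Foxd2 at 1.97, Foxf2 at 1.71 and Foxc1 at 1.29. Among these 5, the members whose higher mean reached 1 FPKM, 2 were at least 2 times higher, against 0.387% of genes, and none was 2 times lower, against 1.18%. Foxc2 lay just inside this limit and Foxd2 just outside it. The call of Foxd2os rested on a higher mean of 1.008 FPKM and was lost with a pseudocount of 1 (1.45), with median-of-ratios scaling and with a minimum on the mean of both groups. That of Foxc2 was lost with a pseudocount of 1 (1.79). At 1.5 times, 4 of the 5 were higher, against 1.38% of genes. These ratios were used to name the members too, and the shares are read no further.

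In the culture the stromal markers moved opposite to the members, whereas in tissue both were lower after deletion. With SAG, all 6 of these markers were lower (ratios 0.71 to 0.99, summed level 4184 and 3763 FPKM). Divided by their median ratio of 0.86, Foxd2 reached 2.29. The 15 other forkhead genes with at least 1 FPKM had ratios of 0.77 to 1.40 and a median of 1.04, none of them past 2 times. The 14 mesenchymal factors had a median ratio of 0.97, with Twist2 at 1.55 and 2.52 FPKM and Meox1 at 16.7 and 8.75, and none was past 2 times.

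**Figure D5:**
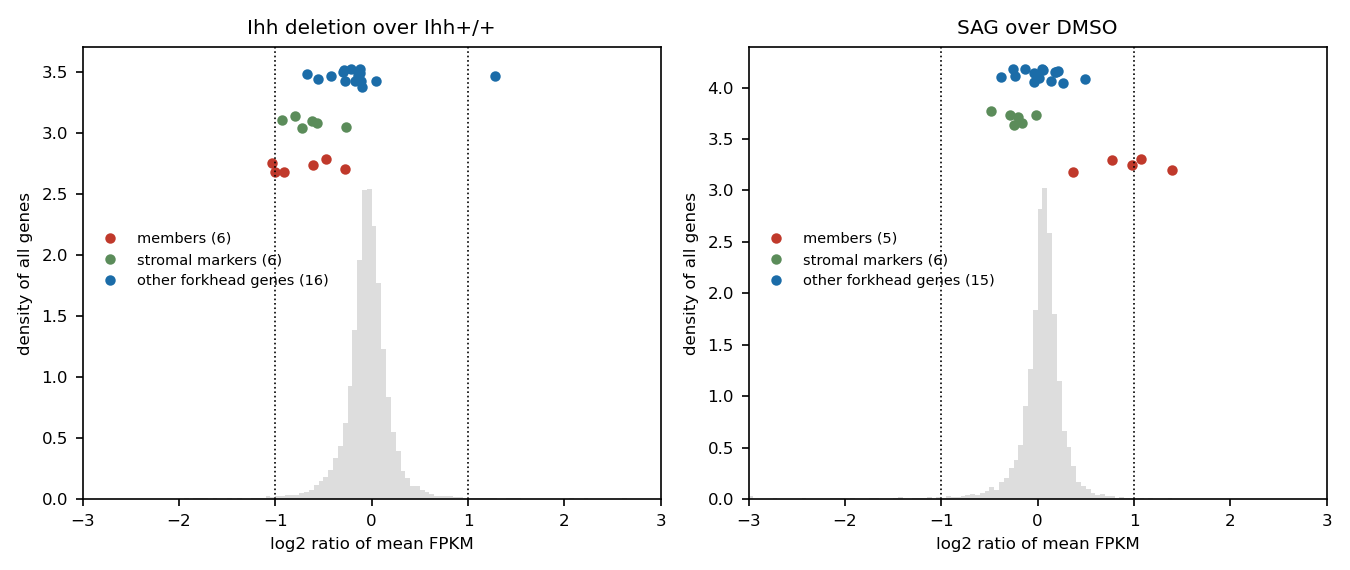
log2 ratio of mean FPKM (x axis) for all genes whose higher group mean was 1 FPKM or more (grey density, y axis), with members, stromal markers and other forkhead genes above it and dotted lines at 2 times. Members and stromal markers lie left of the centre after Ihh deletion, and with SAG the 5 members lie to the right (1.29 to 2.62 times) while the 6 stromal markers lie to the left.

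Levels per gene length could be compared between members in FPKM. In Ihh+/+ tissue, the order ran from Foxf2 and Foxc1 through Foxd2, Foxd1, Foxc2 and Foxd2os to Foxl1. In the DMSO culture Foxc1 was first at 11.8 FPKM, followed by Foxc2 and Foxf2 at 2.57 and 2.31. Foxd1 was last at 0.061, whereas in tissue it was close to Foxd2 at 3.73 and 3.803 FPKM. Among single cells, Foxd1 gave 59 and 47 UMIs and Foxd2 200 and 119, counts of transcript ends that carry no length. Tissue and culture tables were made separately and differ in age, strain background and cell makeup, so these levels are given side by side only.

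Boc and Cdon, coreceptors for Hedgehog ligands, were highest in cluster 7 in both libraries, at 0.41 and 0.44 and at 0.20 and 0.22. In the culture, Boc was at 31.1 and Cdon at 10.5 FPKM with DMSO, and Meox1 and Meox2, also highest in cluster 7, were at 16.7 and 13.98. Other genes highest in cluster 7 differed there. Foxc1 was at 11.8, Foxp4 at 10.3 and Foxp2 at 5.41 FPKM, but Hhip at 0.368, Foxl1 at 0.093 and Foxd1 at 0.061. Likeness of the culture to a cluster was not tested.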

How the data were processed

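The submitters' processing notes name Cell Ranger and Seurat 2.1 for single cells, and CASAVA 1.8.2, FastQC, STAR 2.4.0f1, SAMtools 0.1.19, Cufflinks 2.0.2, HTSeq and DESeq2 for bulk RNA, with the mm10 build. The authors deposited raw UMI counts per cell with cluster names, cluster averages as natural log values, and mean FPKM per group. The bulk tables also hold the authors' DESeq2 log2 fold changes and adjusted p-values, which were not used. The study lists more cells in all than the deposited counts hold, and its cells per cluster differ (more in cluster 7 and fewer in cluster 5). UMI counts were summed per cluster and library in Python 3.11.15 with numpy 2.4.6, pandas 2.3.3, scipy 1.17.1 and matplotlib 3.10.9. As a check, means over cells of natural log values were recomputed for the members. They differed from the deposited averages by at most 0.0662 natural log units, which is not small for scarce genes. Foxd1 in cluster 7 of C57BL/6J was at 0.178 as deposited and 0.226 as recomputed. No doublets were removed. Intervals were exact Poisson or Clopper-Pearson at 95% and cover counting error only. Thinning drew 1700 UMIs from each cell, and left out no cell, as the shallowest held 1717. No test was run, since there was 1 library per strain and the bulk columns used hold group means alone. The FPKM columns give no depth, so the precision of low values is unknown. A gene counted as past 2 times where the group means differed by 2 or more with at least 1 FPKM in the higher one. The members and the gene lists were chosen with earlier results of these data known. Named genes were the members, the 3 nearest genes by Pearson's r per member (log2 of UMIs per 10,000 + 0.02), other forkhead genes with at least 100 UMIs per library, and listed pathway and marker genes. Positions were from GENCODE M21 (GRCm38, the mm10 assembly) and promoters from RefSeq (GRCm38.p6), which held 4 of the 7 members. The scripts were tested on simulated data. EC libraries of other organs were not used here. Some genes that the rule names are not reported here.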

Additional observations from a re-analysis of the deposited data

How the results depend on the processing

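No paired analysis was possible because the bulk tables give group means only and each strain had 1 library, so neither a replicate block nor leaving out a replicate was run. The cause of the changes below was not tested unless stated. With each cell thinned to 1700 UMIs, which left out no cell and by construction weights cells equally, the level of Foxc1 in cluster 7 of B6129PF1/J was 2.70 and that of Foxc2 in cluster 9 was 0.378. After thinning, the stromal shares were 69.2% for Foxc1, 76.1% for Foxf2 and 100% for Foxl1 in B6129PF1/J, and in C57BL/6J 62.7% for Foxc1, 100% for Foxd1, 82.4% for Foxd2, 70.4% for Foxf2 and 100% for Foxl1. With cells of equal depth, their background is the stromal share of cells, 47.7% in B6129PF1/J and 44.8% in C57BL/6J. This background is higher than the stromal share of all UMIs given above. Weighting clusters equally gave 65.6% for Foxc1, 55.1% for Foxc2, 94.7% for Foxd1 and 62.1% for Foxf2 in B6129PF1/J, and 59.7% for Foxc1, 55.4% for Foxc2 and 99.1% for Foxd1 in C57BL/6J. The background for these shares is 4 stromal of 13 clusters, and not the stromal share of all UMIs. Both Foxc2 shares then lay above the intervals given for the share of UMIs. Without cells of both sexes' genes or in the top 5% of UMIs, the share of Foxf2 in C57BL/6J was 65.0%. A second seed gave 25.7% of cells with a Foxf2 UMI in cluster 5 of B6129PF1/J. At a limit of 1.5 times, Foxc1 (0.53), Foxd2os (0.50) and Foxf2 (0.66) also passed after Ihh deletion, and Foxd2 (1.97) and Foxf2 (1.71) with SAG. A pseudocount of 1 moved Foxl1 from 0.48 to 0.76 after deletion and from 3.05 to 1.17 with SAG. It ended the calls of Foxd2 after deletion (0.59) and of Foxc2 (1.79) and Foxd2os (1.45) with SAG. Foxd2os also lost its call at a mean of at least 1 FPKM (ratio still 2.62) and under median-of-ratios scaling (2.51), both because it fell below the minimum. Divided by the stromal marker median, an alternative chosen after seeing the data, the ratios after deletion were 0.78 for Foxd2, 1.05 for Foxf2, 1.15 for Foxd1 and 1.31 for Foxc2, and Foxd2 reached 2.29 with SAG. Without a minimum FPKM, 629 genes were at least 2 times lower and 698 higher after deletion (85 and 126 with it), and 645 and 476 with SAG (122 and 40 with it).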
